A study of Rattus norvegicus with 10 samples.

Results

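JUG2 cells, an enteric glial cell line derived from rat, were compared between a line carrying doxycycline-inducible Sox10 and a line carrying inducible green fluorescent protein (GFP), both after 48 h with 1 µg/ml doxycycline. The comparison used 4 of the 10 Clariom S arrays of the study, namely those labelled SOX10 +dox replicates 2, 3 and 4 and the single array labelled GFP +dox. Since both sides had received the antibiotic, the contrast sets the induced Sox10 line beside the induced GFP line. It cannot tell SOX10 from induced GFP, from the vector or from other differences between the 2 lines. The array labelled SOX10 +dox replicate 1 is shown apart, because its Sox10 signal ran against its label. The remaining arrays are labelled SOX10 -dox (4 arrays) and GFP -dox (1 array), that is, the same lines without doxycycline.

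The SOX10 line was made with the lentiviral vector TetO-FUW-Sox10 and the GFP line with the vector TREG EmGFP, so that the GFP line served as a transduction control. Both carried in addition the TET3G transactivator, driven by the EF1a promoter, which needs doxycycline to switch on the TetO or TREG promoter. The transactivator and, on the 4 arrays compared, doxycycline are therefore shared by both sides. The array signal is a log2 value, so a difference of 1 is a 2-fold difference. The sources used here do not give whether the probes of the Sox10 transcript cluster read the transgene, the rat gene or both.

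SOX10 is a transcription factor of the SoxE family that is made in neural crest cells and then kept by most glia that arise from them, enteric glia included. In Schwann cells and oligodendrocytes it acts on genes of the myelin sheath, on Egr2, which encodes a transcription factor of the myelinating Schwann cell, and on Erbb3, which encodes a receptor for neuregulins. SOX proteins bind a short DNA core through their HMG domain.

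Sox10 itself separated the compared arrays. The 3 SOX10 +dox arrays had log2 signals of 12.93, 12.62 and 13.02, and the GFP +dox array had 6.2. The Sox10 signal was 6.39, 6.11 and 6.43 on SOX10 -dox replicates 2 to 4 and 5.70 on GFP -dox. The SOX10 +dox arrays thus lay 101-fold above GFP +dox (log2 difference 6.66), and did not overlap these 5 other arrays. The array labelled SOX10 +dox replicate 1 gave 6.74, next to the arrays without induction, and the one labelled SOX10 -dox replicate 1 gave 12.90, next to the induced arrays. What those arrays hold could not be settled from the labels, so both stayed out of every comparison unless they are named.

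The authors deposited 1 log2 signal per probe set and array, and 23188 transcript clusters (the probe sets of 1 transcript) entered the comparison after 1646 control probe sets were left out. Array medians ranged from 6.69 to 6.86. The GFP +dox array had the narrowest middle range of signals of the 10 arrays (4.42 between its quartiles, against 4.51 to 4.95). It also had the highest mean of the hybridization spike-in controls (11.97, against 11.12 to 11.50) and the lowest of the polyA spike-in controls (6.98, against 7.23 to 8.01). With a single array on the GFP side there was no replicate test of that side, and precision is limited by how few arrays there are. Differences were therefore described by a call: a transcript cluster was called higher or lower when each of the 3 SOX10 +dox arrays lay at least 2-fold to the same side of GFP +dox.

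Of 23188 transcript clusters, 687 (2.96%) were called higher and 513 (2.21%) lower in the SOX10 line with doxycycline. By any amount, all 3 SOX10 arrays lay above GFP +dox for 6799 (29.3%) and below it for 7542 (32.5%). With replicate 4 left out, which leaves 2 arrays to meet the rule, the counts were 1268 and 983. The large differences were mostly upward. In all 3 arrays, 148 clusters were at least 4-fold higher, 51 at least 8-fold and 10 at least 32-fold, whereas 13 were at least 4-fold lower, 4 at least 8-fold and 0 at least 16-fold. With each array centred on its median, the call gave 808 higher and 360 lower, which moved the upward share from 57.2% to 69.2% of the called clusters. After quantile normalization it gave 649 higher and 582 lower, an upward share of 52.7%.

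The size of the difference depended on brightness. In the dimmest 25% of transcript clusters the median difference between SOX10 +dox and GFP +dox was -0.128, and in the brightest 25% it was 0.198. After quantile normalization these medians were -0.005 and -0.03. Of the brightest 25%, 350 (6.04%) were called higher and 136 (2.35%) lower, and of the dimmest 25%, 14 (0.241%) and 112 (1.93%). Brightness was the mean over all arrays, the induced ones included, so a higher signal with SOX10 itself moves a cluster toward the bright end. GFP +dox minus GFP -dox, which holds no SOX10 array, had medians of 0.144 in the dimmest 25% and -0.199 in the brightest 25%. It shares the GFP +dox array with the difference above, where that array enters with the opposite sign.

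**Figure D1:**
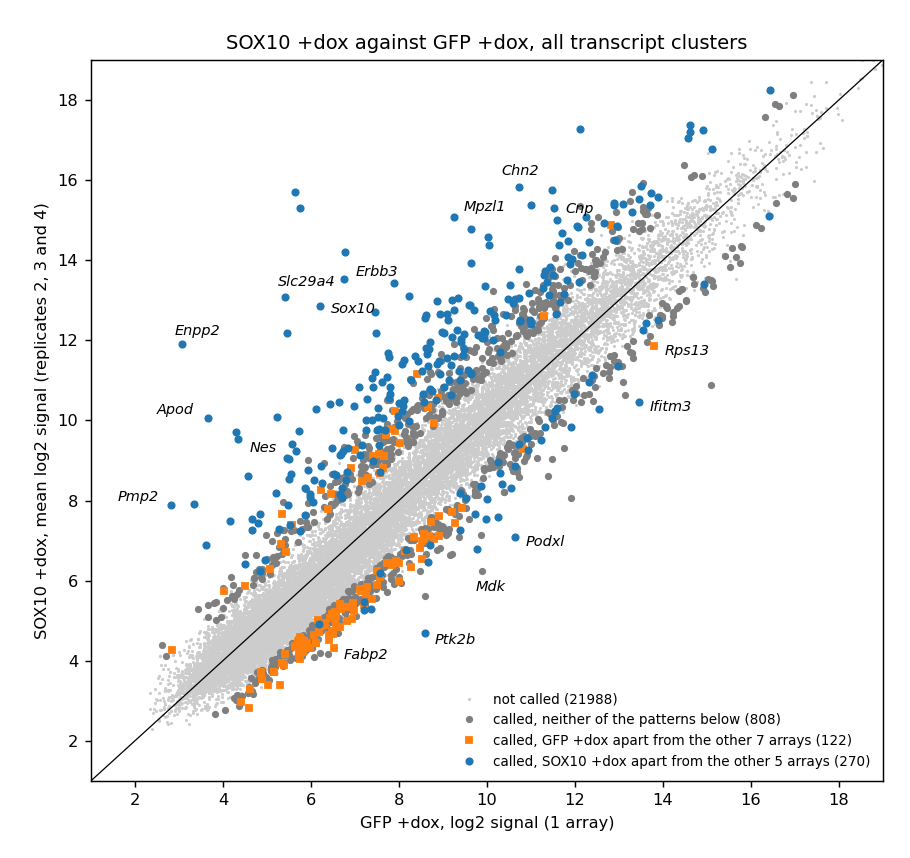
Mean log2 signal of SOX10 +dox replicates 2 to 4 against the log2 signal of the single GFP +dox array, 1 point per transcript cluster, with the line of equality. Blue points are the 226 higher and 44 lower clusters in which the SOX10 +dox arrays lay at least 2-fold beyond the 5 other arrays. They reach farthest from the line on the upper side, up to 1080-fold above it for a cluster without a single gene symbol and 464-fold for Enpp2.

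Which arrays carried each call was read from the other arrays of the study. In 226 of the clusters called higher (0.975% of all clusters) and 44 of those called lower (0.19%), the 3 SOX10 +dox arrays lay at least 2-fold beyond all 5 other arrays, that is, GFP with and without doxycycline and the 3 uninduced SOX10 arrays. In 33 (0.142%) and 90 (0.388%), it was the GFP +dox array that stood at least 2-fold apart from all 7 others. In 1 and 2, all 6 SOX10 arrays lay at least 2-fold to the same side of both GFP arrays. One cluster, Nes, met the first and the second pattern at once. The remaining 428 and 377 met none of them. In 326 and 212 of these the SOX10 +dox arrays lay beyond all 5 other arrays by some amount. In 329 and 283 the GFP +dox array lay beyond all 7 others by some amount, on the opposite side. Both held in 230 and 134.

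The lines differed little before induction by the same call. SOX10 -dox replicates 2 to 4 were called higher than GFP -dox for 23 clusters (0.0992%) and lower for 35 (0.151%). No array is shared with the comparison under doxycycline. The 2 comparisons had 2 clusters higher in common (0.291% of 687, 8.7% of 23) and 10 lower (1.95% of 513, 28.6% of 35). Without SOX10 -dox replicate 4, the array that correlated best with GFP -dox over all transcript clusters, these counts were 292 and 237 instead of 23 and 35.

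Among transcript clusters with a gene symbol, the 12 with the widest gap above GFP +dox in the SOX10-carried pattern were Enpp2, Slc29a4, Sox10, Erbb3, Cmtm5, Apod, Mpzl1, Mpeg1, Serpine2, Chn2, Rnf125 and Dusp15. They cover secreted enzymes and carriers, membrane receptors and transporters, and intracellular signalling proteins. Their differences ran from 4.85 (Rnf125, 28.8-fold) to 8.86 (Enpp2, 464-fold). The 2 widest differences of all, 1080-fold and 754-fold, belonged to transcript clusters without a single assigned symbol. For Enpp2, Slc29a4, Apod, Mpeg1 and Rnf125 the GFP +dox signal lay below the mean of that array's background controls (5.45), so the printed folds depend on signals near background, and the level in the GFP line may be lower than its signal. The same holds for Pmp2, Plxnb3, Postn, F13a1, Krt19, Mbp and Socs2 further on.

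Of the secreted products, Enpp2, which encodes autotaxin, the enzyme that makes lysophosphatidic acid, had log2 signals of 12.19, 12.31 and 11.26 with SOX10 and 3.06 on GFP +dox. On the other arrays without induction it lay between 3.0 and 3.88, so that induced and other arrays were more than 7 log2 units apart. Apod encodes apolipoprotein D, a lipid carrier released by Schwann cells and oligodendrocytes. Its signals were 10.02, 9.85 and 10.32 against 3.65, an 85.4-fold difference. Serpine2, encoding the protease inhibitor known as glia-derived nexin, had 12.69, 13.02 and 14.61 against 7.90. All 3 arrays were high for Serpine2, yet replicate 4 stood well above the other two, and the SD of 1.03 (n = 3) was far above the median SD of all transcript clusters (0.28).

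Of the membrane proteins, Slc29a4, a transporter of monoamines, gave 13.15, 13.17 and 12.91 against 5.41, a 203-fold difference with an SD of 0.14 (n = 3). Erbb3 gave 13.60, 13.85 and 13.11 against 6.76, and the uninduced SOX10 arrays had 5.34, 6.81 and 6.37. The receptor was thus at the level of the GFP line until induction and 109-fold above it afterwards. Cmtm5, a membrane protein of myelinating glia, followed with 11.76, 12.23 and 12.54 against 5.46. Mpzl1, whose product resembles the major adhesion protein of peripheral myelin, had 15.11, 15.50 and 14.67 against 9.26, a 57.0-fold difference.

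Of the intracellular proteins, Chn2 encodes a chimaerin, which switches off the small GTPase Rac. It reached 16.03, 15.94 and 15.49 against 10.73, a 34.0-fold difference. Dusp15, a phosphatase gene linked to oligodendrocyte differentiation, had 13.18, 13.47 and 12.64 against 8.22, and Rnf125, a ubiquitin ligase gene, had 9.89, 10.47 and 9.90 against 5.24. In both, GFP +dox lay below GFP -dox (by -1.31 and -1.47), so the difference was smaller when it was taken from GFP -dox. Mpeg1, which encodes a pore-forming protein best known from macrophages, gave 10.05, 9.28 and 9.82 against 4.30.

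In a limma fit of all 4 groups, in which the lone GFP arrays are assumed to vary like the SOX10 arrays, 211 of the 226 clusters (93.4%) of this pattern passed an adjusted p under 0.05 with a 2-fold difference. The pattern and the fit use the same arrays, so this share is a description. Over all transcript clusters the fit called 442 higher (1.91%) and 214 lower (0.923%), and all of these also met the call rule. These counts depended on single arrays: they were 204 and 30 without SOX10 +dox replicate 2, 223 and 47 without replicate 3, and 728 and 381 without replicate 4. Without SOX10 -dox replicate 3 they were 290 and 69, and without SOX10 -dox replicate 2 the lower count was 101. The adjusted p of limma was 9.04e-07 for Slc29a4, 2.57e-06 for Enpp2, 2.19e-06 for Apod and 6.84e-05 for Erbb3. Their log2 differences with the standard error of the fit were 7.67 ± 0.33, 8.86 ± 0.46, 6.42 ± 0.32 and 6.76 ± 0.50 (n = 3 and 1).

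**Figure D2:**
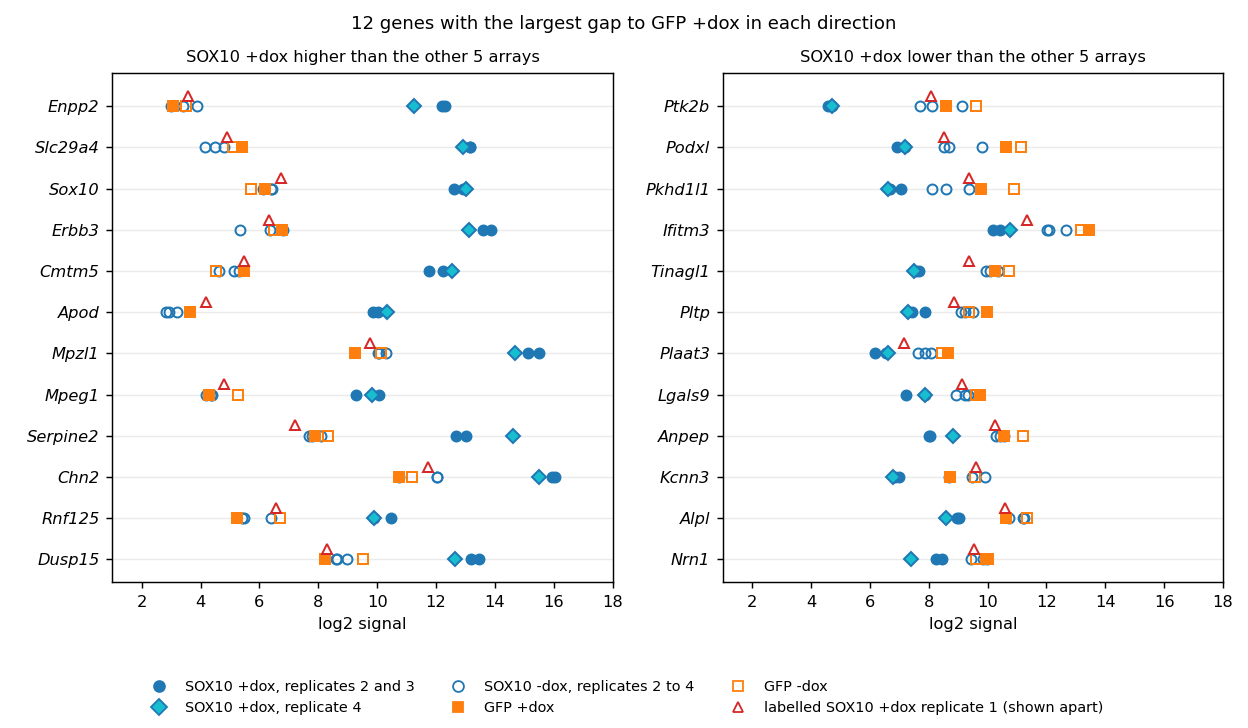
Log2 signals of the 12 genes with the widest gap above GFP +dox (left) and the 12 with the widest gap below it (right), 1 symbol per array, with the array labelled SOX10 +dox replicate 1 drawn as a red triangle above its row. In each gene the filled blue symbols of SOX10 +dox replicates 2 to 4 stand at least 2-fold away from the other 5 arrays. The triangle lies short of all 3 of them in each gene, and in some, such as Ifitm3 (11.35) and Plaat3 (7.16), it lies between them and the other 5.

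The array labelled SOX10 +dox replicate 1 behaved in these clusters as it did for Sox10. It lay at least 2-fold above GFP +dox in 15 of the 226 (6.64%) and below all 3 other SOX10 +dox arrays in all 226. The array labelled SOX10 -dox replicate 1 lay at least 2-fold above GFP +dox in 219 (96.9%). For Enpp2 the 2 arrays gave 3.57 and 12.62.

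Promoter sequence was read for these genes to see what they share beyond their signal. In RefSeq promoter windows of 300 bases, from 250 before to 50 after each gene's start (build GRCr8), the SOX core ACAAAG or ACAATG on either strand was present in 26 of 125 matched genes of the higher, SOX10-carried pattern (20.8%). It was present in 4 of 22 of the lower pattern (18.2%) and in 2888 of 12435 genes with a symbol overall (23.2%). The share was thus close to that of all promoters in both directions. A pair or more of matches was found in 8 of the 125 (6.4%) and in 489 of all genes (3.93%). The 3 promoters below are shown because they span that range: Apod with 3 matches, the myelin gene Mobp with 8 and Slc29a4 with none, although all 3 genes were called higher. Each is written 5′ to 3′ on the strand of the gene, with matches in capitals. All those in Apod and Mobp lie on the opposite strand and so read CTTTGT or CATTGT.
Apod: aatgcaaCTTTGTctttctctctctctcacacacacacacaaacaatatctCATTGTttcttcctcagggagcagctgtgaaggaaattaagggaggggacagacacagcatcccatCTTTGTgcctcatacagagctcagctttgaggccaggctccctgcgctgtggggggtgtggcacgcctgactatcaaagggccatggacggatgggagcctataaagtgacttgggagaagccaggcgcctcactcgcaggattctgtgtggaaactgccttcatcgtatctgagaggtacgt
Mobp: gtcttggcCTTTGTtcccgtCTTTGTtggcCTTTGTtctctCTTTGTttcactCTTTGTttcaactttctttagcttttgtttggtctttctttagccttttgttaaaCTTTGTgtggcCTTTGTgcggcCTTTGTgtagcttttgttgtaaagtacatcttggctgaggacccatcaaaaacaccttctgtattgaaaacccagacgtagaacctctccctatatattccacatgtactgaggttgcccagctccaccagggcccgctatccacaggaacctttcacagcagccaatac
Slc29a4: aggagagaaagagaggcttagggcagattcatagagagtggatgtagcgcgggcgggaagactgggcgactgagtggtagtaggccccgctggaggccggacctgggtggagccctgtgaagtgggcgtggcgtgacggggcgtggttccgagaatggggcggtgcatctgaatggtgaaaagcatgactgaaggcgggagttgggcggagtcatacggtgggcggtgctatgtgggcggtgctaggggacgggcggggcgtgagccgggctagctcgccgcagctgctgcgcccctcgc
In Apod (chr11:82935970-82936269, plus strand) the matches began at positions -243, -199 and -133 from the start, the second of them for ACAATG and the others for ACAAAG. In Mobp (chr8:128746982-128747281, plus strand) all 8 were ACAAAG matches, beginning between positions -242 and -120. Slc29a4 lies at chr12:16988289-16988588 on the minus strand. A match is a run of letters and does not show binding.

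On the lower side, the 12 genes with the widest gap in the SOX10-carried pattern were Ptk2b, Podxl, Pkhd1l1, Ifitm3, Tinagl1, Pltp, Plaat3, Lgals9, Anpep, Kcnn3, Alpl and Nrn1. Their differences ran from -3.92 (Ptk2b, 15.1-fold lower) to -1.78 (Alpl, 3.44-fold lower) and were smaller than those of the 12 higher genes. Several encode proteins of the cell surface or the matrix.

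Ptk2b, which encodes a calcium-sensitive kinase of the focal adhesion family, had 4.73, 4.59 and 4.73 with SOX10 and 8.6 on GFP +dox (SD 0.08, n = 3). The 3 SOX10 signals lay below the background control means of their arrays (5.34, 5.39 and 5.30). Its SD and fold thus depend on signals near background. On the uninduced SOX10 arrays Ptk2b was 7.71, 8.10 and 9.12, and on GFP -dox 9.59. The SOX10 line was thus already lower without doxycycline (difference -1.28). The induced arrays lay at least 2-fold below all 5 other arrays. Tinagl1, a glycoprotein gene of the matrix, had 7.67, 7.57 and 7.49 against 10.25 and was equally tight (SD 0.09, n = 3). Ifitm3 encodes a membrane protein that limits virus entry. It gave 10.43, 10.20 and 10.76 against 13.45, with SOX10 -dox in between at 12.01, 12.10 and 12.65.

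Genes of the membrane and its lipids followed. Pltp, a phospholipid transfer protein gene, had 7.43, 7.89 and 7.28 against 9.99, and Plaat3, a phospholipase gene, 6.19, 6.55 and 6.63 against 8.66. Anpep, encoding a surface aminopeptidase, gave 8.06, 8.02 and 8.82 against 10.56. Lgals9 (a galectin), Kcnn3 (a potassium channel opened by calcium), Alpl (alkaline phosphatase) and Nrn1 (neuritin, a growth-promoting surface protein of neurons) were 3.44-fold to 4.22-fold lower. The limma fit is not a separate test of these 12 genes. They were picked for their gap to the single GFP +dox array, and the fit uses the same arrays.

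For some of these genes the lines differed before doxycycline. Podxl, a sialomucin gene of the cell surface, had 6.91, 7.18 and 7.19 with SOX10 and doxycycline against 10.63 on GFP +dox, but 8.51, 8.68 and 9.81 without it against 11.13 on GFP -dox. The difference between the lines was -2.14 without and -3.53 with doxycycline, and no SOX10 array reached a GFP array in either state. Pkhd1l1, which encodes a large receptor-like membrane protein, had 7.06, 6.67 and 6.6 against 9.78 with doxycycline and 8.58, 8.11 and 9.36 against 10.89 without. Mdk, encoding the heparin-binding growth factor midkine, gave 6.37, 6.33 and 6.02 against 9.90 with doxycycline and 7.26, 7.65 and 7.99 against 9.68 without.

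Mdk was the named member of the pattern in which the lines stood apart on all arrays, since all 6 of its SOX10 signals lay at least 2-fold below both GFP signals. For Mdk, Podxl and Pkhd1l1 the difference between the effects of doxycycline in the 2 lines was -1.61 ± 0.49, -1.40 ± 0.64 and -0.80 ± 0.62, and none passed limma (adjusted p = 0.326, 0.558 and 0.774). Among all clusters called lower with doxycycline, 233 (45.4%) had all 3 uninduced SOX10 arrays below GFP -dox as well, against 24.2% of all transcript clusters. Among those called higher the share was 213 (31%), against 22.8%.

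In other genes the GFP +dox array stood apart from all 7 others. Nes, the intermediate filament gene of neural progenitors and glia, had 8.73, 9.03 and 9.35 with SOX10 and 5.5 on GFP +dox. The 3 uninduced SOX10 arrays (6.88, 6.71 and 6.91) and GFP -dox (6.97) lay between them, so the SOX10 arrays were above and the GFP +dox array below all others. The difference between the lines was 11.6-fold, and that between GFP +dox and GFP -dox was -1.46 on the log2 scale.

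Il1rap, the co-receptor gene of the interleukin 1 receptor, had 11.08, 10.95 and 11.44 against 8.42, with GFP -dox at 9.71. Socs2, an inhibitor of cytokine signalling, had 7.72, 7.41 and 7.89 against 5.34, with GFP -dox at 6.52, and Fam234a had 10.49, 10.29 and 9.96 against 7.92, with GFP -dox at 9.13. In these 3 genes GFP +dox was at least 2-fold below each of the 7 other arrays. The array labelled SOX10 +dox replicate 1, which is not among the 7, was near GFP +dox in Socs2 (5.49). With GFP -dox as the reference Nes and Il1rap still met the call, whereas Socs2 and Fam234a did not.

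In the opposite direction, Rps13, a gene of the small ribosomal subunit, gave 13.80 on GFP +dox, and the other 7 arrays lay between 11.77 and 12.74. Atp2b4 (a calcium pump of the plasma membrane) gave 6.40 against 4.16 to 5.12, and Ralyl (an RNA-binding protein) 7.21 against 5.12 to 5.85. Fabp2, encoding the fatty acid-binding protein of the intestinal epithelium, gave 6.53 on GFP +dox and 4.55, 4.77 and 3.65 with SOX10. On GFP -dox it was 3.82 and on the uninduced SOX10 arrays 5.02, 5.20 and 5.01, so its direction turned without doxycycline. With GFP -dox as the reference the difference was 0.50 instead of -2.21. On the other 7 arrays Fabp2 and Atp2b4 lay below the background control mean of each array. The turn in Fabp2 thus depends on signals near background.

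The clusters in which GFP +dox stood above the rest were dim, with a median log2 signal of 5.17 over all arrays, whereas the median of all transcript clusters was 6.76. Of the 48 with a symbol, 12 (25%) were genes of olfactory or vomeronasal receptors, which made up 7.66% of all clusters with a symbol and 0 of the 33 in the lower, SOX10-carried pattern. Over all 1153 receptor clusters GFP +dox lay a median of 0.21 above GFP -dox. The array's share in these differences was not tested, and GFP +dox has no replicate.

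**Figure D3:**
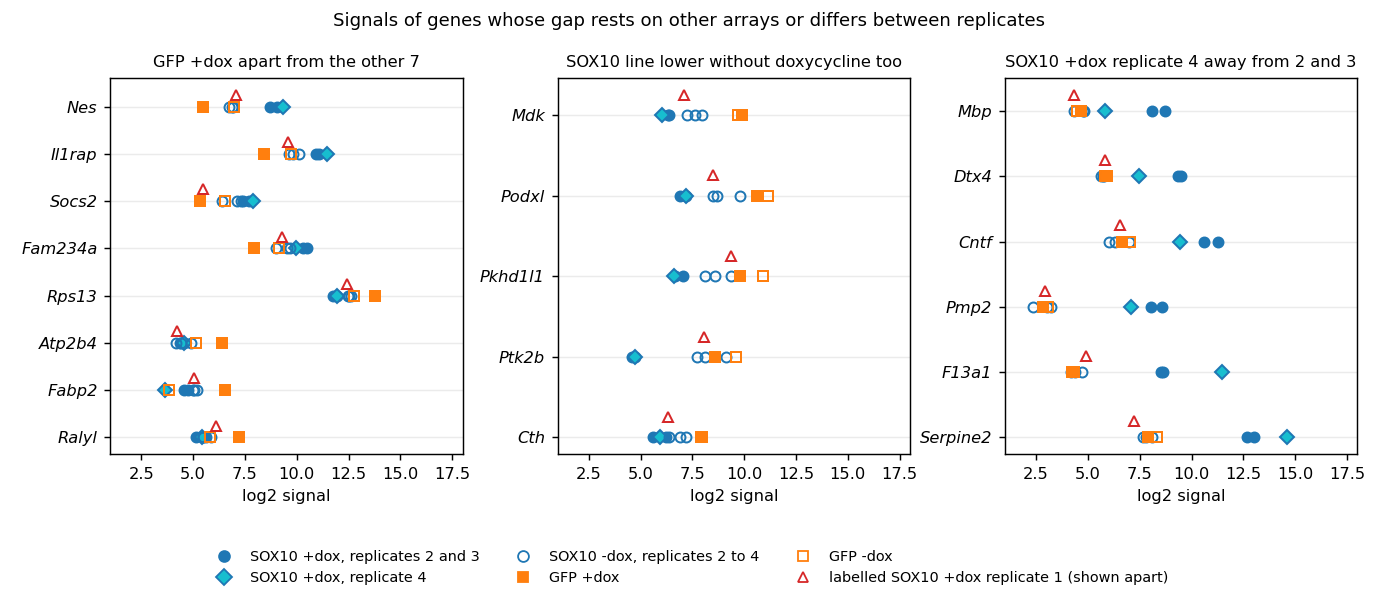
Log2 signals, 1 symbol per array, of genes in which the GFP +dox array stood apart (left), genes lower in the SOX10 line without doxycycline as well (middle), and genes in which SOX10 +dox replicate 4 lay away from replicates 2 and 3 (right). Filled orange squares (GFP +dox) stand apart from the 7 other arrays compared on the left. In Socs2 the array labelled SOX10 +dox replicate 1 (5.49) lies near the square (5.34). The filled diamonds (replicate 4) lie between the groups or beyond replicates 2 and 3 on the right.

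Gene lists were then counted, beside a median difference of -0.024 over all transcript clusters. They are described by counts alone, to be read against 2.96% called higher and 2.21% called lower among all transcript clusters. Of 20 myelin structural genes measured, 5 were called higher and 0 lower, and the median of the list was 0.12. Pmp2, the fatty acid-binding protein of peripheral myelin, had 8.55, 8.06 and 7.09 against 2.83 (33.6-fold). Cnp, a cytoskeletal enzyme of myelinating cells, had 15.43, 15.32 and 14.24 against 11.59 (10.7-fold), and Mobp, a protein of central myelin, 11.12, 11.44 and 10.44 against 8.27 (6.65-fold). Mbp and Cadm4 were the others, Cadm4 (an adhesion protein between glia and axon, named here after its values were seen) with a difference of 2.49. The other 15 members did not meet the call, among them Mag (0.31), Mog (0.02), Cldn11 (-0.35) and Pmp22, which lay at 16.98, 17.05 and 16.30 against 15.74.

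Of 19 genes of the Schwann cell lineage, 6 were called higher (Erbb3, Apod, Cntf, Egr2, S100b and Ngfr) and 0 lower, with a median of 0.22. Cntf, a survival factor stored in myelinating Schwann cells, had 11.30, 10.62 and 9.43 against 6.63 (14.2-fold). Egr2 had 11.92, 11.88 and 10.67 against 8.44 (8.28-fold). The calcium-binding protein gene S100b, a glial marker, had 7.47, 7.79 and 7.63 against 5.86, and Ngfr, the low-affinity neurotrophin receptor, 7.91, 8.46 and 7.81 against 6.70. In all 6 genes the 3 induced arrays lay above every uninduced and GFP array. Limma passed 5 of them, and Ngfr had an adjusted p of 0.0774.

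Of 16 genes of the oligodendrocyte lineage, 6 were called higher and 0 lower, with a median of 0.27, and all 6 passed limma. Besides Enpp2 and Dusp15, they included Plxnb3, a semaphorin receptor gene, with 7.69, 8.22 and 7.86 against 3.34 (23.9-fold). The others were Sox6 (of another SOX group than SOX10), Aspa (an enzyme that splits N-acetylaspartate) and Bcas1 (a marker of newly myelinating cells). The last 3 were named after their values were seen and differed from GFP +dox by 4.01, 2.50 and 2.43. The transcription factor genes that specify the lineage lay near GFP, Olig1 by -0.39, Olig2 by 0.15 and Nkx2-2 by 0.09. Myrf, which drives central myelination, was at 12.16, 12.37 and 11.28 against 10.88, and its replicate 4 was within 2-fold of GFP +dox.

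Of 13 enteric glial genes measured, 5 were called higher (Sox10, Erbb3, Nes, S100b and Ngfr) and 0 lower, with a median of 0.08. Sox10 is the induced gene itself, so its call was given by the design. Erbb3, S100b and Ngfr are also counted in the Schwann cell list. Gfap, the astroglial intermediate filament gene, was not called, with 5.83, 6.30 and 5.44 against 5.77, so that the induced arrays lay on both sides of GFP +dox. On the uninduced SOX10 arrays it was 5.45, 5.63 and 5.81 and on GFP -dox 5.78, so that the 8 arrays spanned 5.44 to 6.30 with no separation of the groups. Of 11 melanocyte genes, Mitf, their master regulator, was the single one called higher, with 9.55, 9.70 and 9.65 against 8.33 (2.47-fold, limma adjusted p = 0.0492). GFP -dox was at 9.10, and with GFP -dox as the reference the call was lost. Of 12 Notch pathway genes, 1 was called higher, Dtx4, a ubiquitin ligase gene of the Deltex family, with 9.36, 9.48 and 7.48 against 5.94.

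Of 17 genes of the Id and BMP group, 3 were called lower and 0 higher, and 12 of the 17 lay below GFP +dox on all 3 arrays (median -0.61, against 0.04 without doxycycline). Of all transcript clusters, 2.21% were called lower and 32.5% lay below on all 3 arrays. Id proteins block helix-loop-helix transcription factors and are induced by BMP. Id1 gave 10.65, 11.70 and 10.55 against 13.09 (4.35-fold lower), Id3 8.45, 8.18 and 8.44 against 9.87 (2.86-fold lower), and Fst, encoding the antagonist follistatin, 9.18, 8.83 and 8.84 against 10.37 (2.68-fold lower). Limma passed Id1 and Id3 (adjusted p = 0.0333 and 0.0249) but not Fst (0.0579).

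Amino acid and mitochondrial stress genes had 3 of 19 called lower and 0 higher (median -0.60, against 0.25 without doxycycline). Cth, an enzyme gene of cysteine synthesis, had 5.6, 6.22 and 5.95 against 7.90, with GFP -dox at 7.95. Gdf15, a stress-induced cytokine gene, had 4.63, 4.51 and 4.44 against 5.79, but GFP -dox was at 4.72, and Vldlr, a lipoprotein receptor gene, differed by -1.6. Limma passed Cth alone (adjusted p = 0.0237). In Gdf15 the SOX10 arrays therefore lay near GFP -dox, and all of these lay below the background control means of their arrays. In Cth both GFP arrays were high. Of the 21 interferon and chemokine genes 1 was called lower, the antiviral GTPase gene Mx1, with 4.01, 3.71 and 3.84 against 5.11 (GFP -dox 4.25). Each of these Mx1 signals lay below the background control mean of its array, which was 5.45 on GFP +dox. Of 15 neuronal genes 1 was called lower, the microtubule protein gene Map2, with 4.95, 5.58 and 5.59 against 7.22 (GFP -dox 6.01). Limma passed neither.

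The extracellular matrix list had 1 of 15 called higher, Postn, encoding the matricellular protein periostin, with 7.14, 7.12 and 7.52 against 4.67, and 1 lower, Col6a2, a collagen VI chain, with 12.22, 12.43 and 12.14 against 13.56. Of 14 smooth muscle contractile genes, 0 were called in either direction, although 10 lay below GFP +dox on all 3 arrays, beside 32.5% of all transcript clusters (median -0.60, and -0.32 without doxycycline). The 17 Hox genes, 22 cell cycle genes and 12 housekeeping genes had 0 called. Limma passed 0 of these 4 lists too.

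Markers of other cell types were looked at as a check on the cultures. Of 15 macrophage and microglia genes, Mpeg1 and F13a1 were called higher, and 0 were called lower. The 6 defining macrophage markers Ptprc, Cd68, Itgam, Aif1, Csf1r and Adgre1 were all without a call. The log2 of their summed linear signals ranged from 7.57 to 8.37 on the induced SOX10 arrays and was 7.91 on GFP +dox. Every sum in this paragraph was taken on the linear scale, so the brightest marker, such as Cd68 or Acta2, weighs most. Krt19, a keratin gene, was the single member called of 10 endothelial and epithelial genes, with 6.04, 6.40 and 7.09 against 4.96, while the defining genes Epcam, Cdh1 and Krt8 differed by -0.22, -0.56 and -0.69. Summed over 4 defining smooth muscle genes the signal was 14.48, 14.27 and 15.46 against 15.62. The 3 defining neuronal genes summed to 11.96, 11.31 and 10.34 against 9.59, all 3 induced arrays being higher, and to 10.47 on GFP -dox. Of these, Tubb3, a neuronal tubulin, had 11.94, 11.28 and 10.28 against 9.46 and did not meet the call, since replicate 4 was within 2-fold, while Elavl4 and Snap25 differed by -0.52 and -0.29. Of the 6 glial markers, 5 were called higher, Sox10 itself among them, and Gfap was not. In these bulk samples fewer cells of a type and less RNA per cell cannot be told apart.

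**Figure D4:**
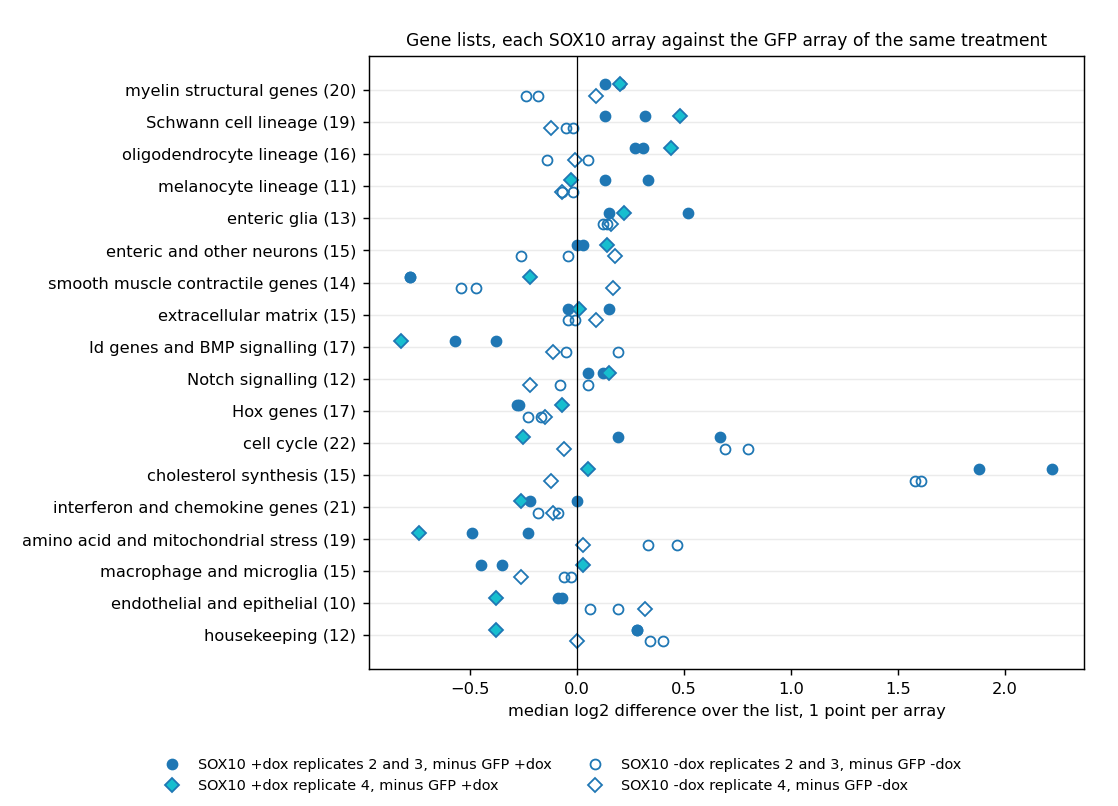
Median log2 difference of each gene list between 1 SOX10 array and the GFP array of the same treatment, with the number of genes measured in brackets. Filled symbols are arrays with doxycycline and open symbols arrays without, diamonds mark replicate 4. Cholesterol synthesis reaches 2.22 and 1.88 in SOX10 +dox replicates 2 and 3 but 0.05 in replicate 4, and the Id and BMP list is below 0 in all 3 filled symbols.

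The 3 SOX10 +dox arrays did not behave alike. At least 2-fold from GFP +dox, replicate 2 had 1863 transcript clusters higher and 1723 lower, replicate 3 had 1783 and 1698, and replicate 4 had 1396 and 1321. Replicate 4 was the array nearest to GFP +dox in 431 of the 687 clusters called higher (62.7%) and in 195 of the 513 called lower (38%). Over all transcript clusters its correlation with GFP +dox was 0.973 and that of replicates 2 and 3 was 0.969 each. Among SOX10 -dox arrays, too, replicate 4 lay nearest to GFP -dox, with 253 clusters at least 2-fold higher and 224 lower, where replicate 2 had 690 and 635 and replicate 3 had 617 and 619.

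The cholesterol synthesis list shows the same split. Its median difference from GFP +dox was 2.22 in replicate 2, 1.88 in replicate 3 and 0.05 in replicate 4. Without doxycycline the medians against GFP -dox were 1.61, 1.58 and -0.12. The list was therefore high in replicates 2 and 3 of the SOX10 line with and without doxycycline and at the level of the GFP line in replicate 4. Insig1, which holds back the sterol sensor, and Msmo1, an oxidase of the pathway, are examples, chosen after their values were seen: Insig1 had 16.14, 15.88 and 13.33 against 13.76, and Msmo1 15.48, 15.26 and 13.18 against 12.59. Of the 15 genes, 1 was called higher, Stard4, a sterol carrier, with 11.72, 11.17 and 10.61 against 8.73, and limma passed none.

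Single genes of the glial lists carried this spread as well. Mbp, a main protein of myelin, had 8.10 and 8.72 in replicates 2 and 3 but 5.81 in replicate 4, against 4.66 on GFP +dox. All 3 lay above every other array, yet the SD was 1.54 (n = 3), and limma did not pass it (adjusted p = 0.0907). Dtx4 likewise had 7.48 in replicate 4, about 2 log2 units under the others. F13a1, a subunit of coagulation factor XIII, went the opposite way, with 8.61 and 8.52 in replicates 2 and 3 and 11.45 in replicate 4, against 4.34.

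The doxycycline effect was set side by side in the 2 lines, using the arrays above, so that this contrast shares them with the call. The difference of the doxycycline effects (SOX10 line minus GFP line) passed limma in 83 clusters upward (0.358%) and 6 downward (0.0259%). With the replicate number as a block the counts were 122 and 10. Leaving out 1 SOX10 array at a time gave 43 to 166 and 0 to 11, with the highest counts without SOX10 +dox replicate 4. For Slc29a4 the difference was 8.28 ± 0.47, for Enpp2 8.92 ± 0.65, for Apod 7.07 ± 0.45, for Erbb3 7.08 ± 0.71 and for Pmp2 5.26 ± 0.72 (limma adjusted p = 3.19e-05, 0.000108, 4.62e-05, 0.00147 and 0.0106). The 12 lower genes of the SOX10-carried pattern did not pass this contrast, with limma adjusted p from 0.0873 (Pltp, -2.35 ± 0.48) to 0.774 (Pkhd1l1), and from 0.0642 to 0.578 with the block, whereas the 12 higher genes passed it. For Slc29a4, Enpp2, Apod, Erbb3 and Pmp2 the plain differences from GFP +dox were 7.67, 8.86, 6.42, 6.76 and 5.07. For Fabp2 the difference of the effects was -3.46 ± 0.58, beside a plain difference of -2.21 and a difference of 2.71 between GFP +dox and GFP -dox. On the compared arrays apart from GFP +dox, its signals lay below the background control means.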

How the data were processed

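RNA of JUG2 lines was hybridised to Clariom S rat arrays. The authors deposited log2 signals, 1 value per probe set and array, made with the Transcriptome Analysis Console. The background correction and normalization are not given in the sources used here, and the values were taken as they stand. Of 24834 probe sets, 1646 controls were left out. Symbols came from the platform annotation: 15049 transcript clusters had exactly 1. The other 8139 had none or more than 1 and are not named. For a gene with several clusters the one with the highest mean was used.

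Groups followed the labels, apart from the pair labelled replicate 1. The call required each of the 3 SOX10 +dox arrays to lie at least 2-fold from GFP +dox on the same side. Array patterns used the same distance. The fit of limma 3.58.1 (R 4.3.3) covered 4 groups on 8 arrays, with an adjusted p under 0.05 (Benjamini-Hochberg over all transcript clusters) and at least 2-fold. Its p-values measure the spread between the SOX10 arrays, which the study describes as independent experiments, with the same variance assumed for the single GFP arrays. The fit was also run on simulated data drawn with that same variance on all arrays, so the simulation cannot test the assumption. Replicate numbers paired the SOX10 arrays (correlations of deviations 0.194, 0.15 and 0.411 for numbers 2, 3 and 4, all above 0.1), although numbers 2 and 3 also correlated when crossed (0.171 and 0.13) and it was number 4 that stood apart. Therefore the difference of the doxycycline effects was also fitted with the number as a block. Promoter windows came from RefSeq tables of build GRCr8, matched by Entrez gene identifier. Tables were made with pandas 2.3.3 and plots with matplotlib 3.10.9.

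Named genes were, among those with a symbol, the 12 widest gaps each way in the SOX10-carried pattern, up to 5 each way with the lines apart, 4 each way with GFP +dox apart, up to 3 called members of each of 18 gene lists, and markers that the study measured or discussed, 58 in all. The genes compared and the lists were chosen with earlier results of these data known. Alternatives were quantile normalization, centring, leaving out the dimmest 25% of clusters, other thresholds, other GFP references, replicate 1 kept as labelled, leaving out 1 array at a time, a mean-variance trend and the block.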

Additional observations from a re-analysis of the deposited data

Results flagged for a closer look

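In the group labelled SOX10 +dox, the array labelled replicate 1 lay apart from the other 3 in 18 of the named genes, by a gap divided by the range of the 4 arrays above Dixon's critical value. The ratio was 0.97 for Slc29a4, 0.96 for Ptk2b, 0.94 for Sox10, 0.93 for Kcnn3 and 0.92 for Apod. It was 0.90 for Erbb3 and for Tinagl1, 0.89 for Cmtm5, 0.88 for Enpp2 and for Plxnb3, 0.87 for Chn2 and for S100b, and 0.86 for Mpzl1. It was 0.85 for Mpeg1 and for Rnf125, 0.84 for Dusp15, and 0.83 for Pkhd1l1 and for Id3. In Map2 it was replicate 2 that lay apart, with a ratio of 0.88. Chance marks about 1 in 20 groups in this way, but that rate cannot be applied here: the array was set apart for its Sox10 signal, and most of these genes were picked because replicates 2 to 4 stood apart, so the ratios are a description.

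The effect of doxycycline differed between the SOX10 and the GFP line in 83 transcript clusters upward and 6 downward by limma. Among the named genes the difference of the effects was 8.92 for Enpp2, 8.28 for Slc29a4, 7.08 for Erbb3, 7.07 for Apod and 6.37 for Mpeg1. It was 6.22 for Cmtm5, 6.04 for Sox10, 6.0 for Serpine2, 5.85 for Mpzl1, 5.81 for Rnf125, 5.67 for Dusp15 and 5.26 for Pmp2. It was 4.67 for Chn2, 4.10 for Plxnb3, 3.76 for Cnp, 3.67 for Nes and 2.59 for Il1rap, and -3.46 for Fabp2. The GFP side of each rests on 1 array with and 1 without doxycycline.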

How the results depend on the processing

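Counts are given as higher and lower. The calls against GFP +dox (687 and 513) were 1735 and 1860 at 1.5-fold, 148 and 13 at 4-fold, 150 and 236 with replicate 1 kept as labelled, and 797 to 1268 and 642 to 983 with 1 SOX10 +dox array left out. Against GFP -dox 452 were higher, and against the mean of both GFP arrays 261 were lower. The SOX10-carried pattern (226 and 44) was 418 and 190 at 1.5-fold, 67 and 2 at 4-fold, 0 and 0 with replicate 1 kept, and 234 to 383 and 51 to 109 with 1 array left out. The pattern of lines apart (1 and 2) was 10 and 26 at 1.5-fold, 0 and 0 at 4-fold, 0 higher with replicate 1 kept, 1 lower after centring, and 1 to 13 and 2 to 20 with 1 array left out. The pattern carried by GFP +dox (33 and 90) was 53 and 53 after centring, 360 and 590 at 1.5-fold and 0 and 0 at 4-fold. It had 50 lower without the dimmest 25%, and 36 to 53 and 93 to 125 with 1 array left out.

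Between the lines without doxycycline (23 and 35) the counts were 240 and 354 at 1.5-fold, 0 and 0 at 4-fold, 10 higher with replicate 1 kept, 23 lower without the dimmest 25%, and 42 to 292 and 61 to 237 with 1 array left out. Limma against GFP +dox (442 and 214) gave 322 lower after quantile normalization, 156 and 13 at an adjusted p under 0.01, 0 and 0 with replicate 1 kept, and 204 to 728 and 30 to 381 with 1 array left out. No paired analysis was possible because the GFP arrays share their number with the left-out replicate 1 alone. The difference of the doxycycline effects (83 and 6) gave 27 and 0 at an adjusted p under 0.01, 0 and 0 with replicate 1 kept, and 43 to 166 and 0 to 11 with 1 array left out, and the replicate block gave 10 lower. At an unadjusted p under 0.05 it had 1116 and 981. The cause of these shifts was not tested beyond what fewer arrays or another threshold bring by construction.

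Of the 58 named genes, 2 lost the call after quantile normalization, 1 after centring, 38 with replicate 1 kept, 11 against GFP -dox and 6 against the mean of both GFP arrays, and 0 with any 1 SOX10 +dox array left out. Fabp2 turned from -2.21 to 0.50 against GFP -dox. The single GFP +dox array sets the precision of every value. Differences near the background of the arrays may be understated where a level is lower than its signal. Some of them depended on the GFP array used. Of the dim genes, Mx1, Gdf15 and Atp2b4 lost the call against GFP -dox, whereas Enpp2, Apod and Pmp2 kept it. The share of the GFP +dox array in such differences was not tested.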
